A study of Homo sapiens with 20 samples.

Results

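Calponin 1 (CNN1) and the smooth muscle genes that act beside it on the actin filament were followed through the differentiation of HepaRG cells. HepaRG is a human hepatoma line whose progenitors give rise to hepatocyte-like and biliary-like cells. The 9 genes were CNN1, the actins ACTA2 and ACTG2, the tropomyosins TPM1 and TPM2, caldesmon (CALD1), transgelin (TAGLN), the myosin regulatory light chain MYL9 and the myosin heavy chain MYH11. All probes whose accession maps to these symbols in RefSeq were taken, 14 probes among the 42405 on the array. CNN1 was chosen for its large difference between D4 and D15 in these same arrays, and the others as its companions in smooth muscle, so that every value of the 9 genes that involves D4 or D15 is given here as a description with no test. Genes of other lists were tested between D4 and D15. Those lists too were chosen with earlier results of these data known, so their tests are not independent of the data. 7 of the 9 genes, with 11 probes, passed the filter on dim probes (in at least 1 condition, 4 of 4 arrays well above background), and MYL9 and MYH11 did not. In all, 22224 genes were kept.

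Smooth muscle contracts when myosin slides along actin filaments. Myosin is switched on by phosphorylation of its regulatory light chain, while tropomyosin lies along the filament and calponin and caldesmon, bound beside it, restrain the myosin motor. Transgelin cross-links the filaments. Many of these genes are also used outside muscle, in the stress fibres of spreading, dividing or wound-associated cells, and ACTA2 is the classical marker of the activated stellate cell of the liver, the main collagen-producing cell of fibrosis. A common switch for them is serum response factor (SRF), which binds a DNA element called the CArG box and is activated by cofactors that sense the pool of free actin.

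Total RNA of 20 cultures was hybridised with Cy3 to 1-colour arrays, 4 arrays for each of 5 conditions, and the replicates were described as independent experiments. All cells were HepaRG in William's E medium with serum, antibiotics, insulin and hydrocortisone, and all conditions share that medium. Cells were taken as progenitors on day 4 (D4), on day 15 before any DMSO (D15), on day 30 after a further culture without DMSO (D30 − DMSO) or with 2% DMSO (D30 + DMSO), and on day 34 after 2% DMSO had been withdrawn for 4 days (D34 ± DMSO). A level is the log2 signal relative to the 75th percentile of the same array, so that 0 is the 75th percentile and a difference of 1 is a 2-fold change. Signals were held at 1 or above, which is a level of -9.14. Levels of different probes are not compared with each other.

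Slides and single arrays touch the results. The 75th percentile of the signal ranged from 407 to 766 and 61.1% to 74.2% of the spots were well above background. The arrays lay on 4 slides scanned in 2 sessions, and the D30 + DMSO arrays lay on slides 3 and 4 only, while D30 − DMSO had 1 array on each slide. D15 replicate 1 and D34 ± DMSO replicate 2 stood apart. They had 1250 and 771 genes more than 2-fold above every other array of their condition, against 9 to 304 on the other 18 arrays, and 476 genes were high in this way on both of them, against 0 to 15 in the other 15 pairs of a D15 and a D34 ± DMSO array. TPM2 was the only one of the 7 genes among the 476. The share of these 476 with a RefSeq symbol was 30.5%, against 64.1% of all genes.

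The labels call the cells hepatic stem cells. All 8 hepatocyte markers were measured, and all 8 were higher at D15 than at D4 (limma, adjusted p under the threshold of 0.005 and more than 2-fold), albumin by 2.52 on the log2 scale. Genes of differentiated smooth muscle gave a mixed picture. MYH11, the myosin motor of that tissue, was well above background on 1 of 20 arrays on one probe and on 0 of 20 on the other, LMOD1 on 0, and the smooth muscle coactivator MYOCD on 2. By contrast 17 of 23 other smooth muscle genes were kept, among them DES and SMTN, which were well above background on 4 of 4 arrays of every condition. The genes described here are therefore named by their proteins and not as a smooth muscle programme. RNA came from whole cultures, so fewer cells of one type and less RNA per cell cannot be told apart.

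CNN1 had the most marked course. On the 4 D4 arrays its level was 1.41, 0.08, 0.62 and 0.17, well above background on every one. At D15 it was -4.96, -5.54, -5.64 and -5.56, with 1 of 4 arrays well above background. The difference of the means was -5.99 (63.7-fold), from 0.57 ± 0.61 (SD, n = 4) to -5.43 ± 0.31, and no D15 array came near a D4 array. With a normexp background correction, which lifts dim signals, the CNN1 difference was -3.59. Among the 22224 genes the difference of -5.99 was the largest downward from D4 to D15, and it is the value that chose the gene. The next were AMTN at -5.84 and ODAPH at -5.79. All 3 were dim at D15, well above background on 1, 2 and 0 of 4 arrays, so their order among themselves is not settled. Without DMSO, CNN1 stayed at this low level on day 30, with -5.37, -5.58, -4.75 and -7.06. With DMSO it was -9.13, -6.25, -9.14 and -9.14, that is, at or next to the floor on 3 arrays and well above background on 0 of 4. After withdrawal it was -6.40, -4.68, -5.22 and -6.39, in the same range as D15 and D30 − DMSO. From D4 to D30 + DMSO the level was at least 109-fold lower on the scale of the processed signal, where "at least" means that the dim group was set to the lowest signal that counted as above background on each of its arrays. In the order of the means, D4 stood first, D15, D34 ± DMSO and D30 − DMSO followed with overlapping arrays, and D30 + DMSO was last.

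**Figure D1:**
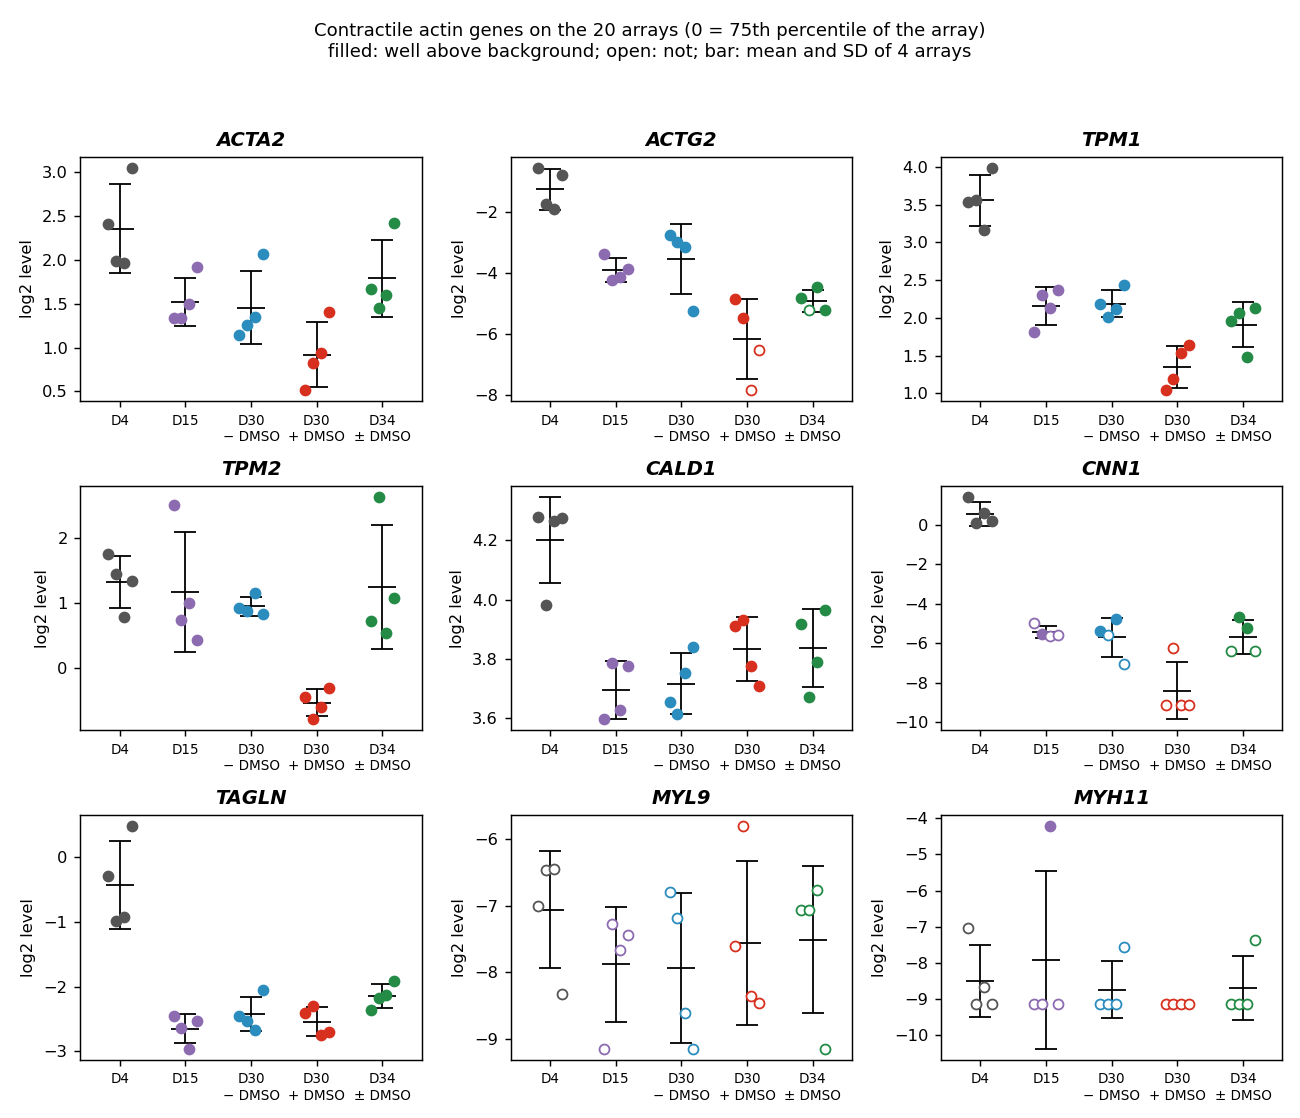
Log2 level of the 9 genes on each of the 20 arrays, on the probe with the highest mean signal, by condition. Filled points were well above background and open points were not, and bars show the mean and SD of 4 arrays. CNN1 lies above 0 at D4 and below -4 in every other array, ACTA2 and TPM1 have their lowest means at D30 + DMSO, and MYL9 and MYH11 are almost entirely open points.

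The actins followed at lower amplitude. ACTG2, the gamma actin of visceral smooth muscle, had levels of -0.57, -1.75, -1.92 and -0.82 at D4 and of -3.38, -4.24, -4.12 and -3.87 at D15, a difference of -2.64 (6.24-fold), or -1.59 with normexp. Its arrays did not overlap between these days. D30 − DMSO had -2.77, -2.97, -3.16 and -5.26, where replicate 4 lies far below the other 3. D30 + DMSO had -4.86, -5.46, -7.83 and -6.51, the last 2 not well above background, and D34 ± DMSO had -4.82, -5.21, -4.46 and -5.21. So the ACTG2 mean was highest at D4, next at D30 − DMSO (-3.54 ± 1.15) and D15 (-3.90 ± 0.38), which overlap, and then at D34 ± DMSO (-4.93 ± 0.36) and D30 + DMSO (-6.16 ± 1.30), which overlap as well.

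ACTA2, the alpha actin of vascular smooth muscle, was far above background throughout. Its levels were 2.41, 1.98, 1.97 and 3.05 at D4 and 1.34, 1.34, 1.50 and 1.92 at D15, a difference of -0.83 (1.78-fold) with no overlap. On day 30 they were 1.14, 1.25, 1.35 and 2.07 without and 0.52, 0.82, 0.94 and 1.40 with DMSO, and after withdrawal 1.67, 1.45, 1.60 and 2.42. Replicate 4 was the highest ACTA2 array of every condition, and in every condition it lay on slide 4, scanned in session 2. The actin genes are nearly identical in coding sequence, and whether a probe reads the transcript of another actin was not tested.

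Tropomyosins wind along actin as coiled coils. TPM1 had levels of 3.53, 3.56, 3.16 and 3.99 at D4 and of 1.81, 2.31, 2.14 and 2.36 at D15, a difference of -1.40 (2.65-fold) without overlap, and its other probes gave -1.44 and -1.39. It then held at 2.18, 2.02, 2.12 and 2.44 in D30 − DMSO. All 4 D30 + DMSO arrays, at 1.04, 1.19, 1.54 and 1.64, were lower than those, and D34 ± DMSO stood at 1.96, 2.07, 1.48 and 2.13. TPM2 had 1.75, 1.44, 0.79 and 1.33 at D4 against 2.50, 0.74, 1.01 and 0.43 at D15 (difference -0.16, arrays overlapping). Its value of 2.50 is D15 replicate 1, an array that stands apart. With the 2 arrays that stand apart left out, a choice made after seeing the data, the TPM2 difference was -0.60.

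Caldesmon and transgelin were lower from D15 on and changed little after it. CALD1 had 4.28, 3.98, 4.27 and 4.27 at D4 and lay between 3.60 and 3.96 on all 16 later arrays, with condition means of 3.70 to 3.84 that overlap with each other. The difference from D4 to D15 was -0.50 (1.42-fold). TAGLN had -0.29, -0.99, -0.92 and 0.48 at D4 and -2.46, -2.64, -2.96 and -2.54 at D15, a difference of -2.22 (4.66-fold), or -3.54 (11.7-fold) on its dimmer probe. Its later means, -2.43 ± 0.27 in D30 − DMSO, -2.54 ± 0.22 in D30 + DMSO and -2.14 ± 0.19 in D34 ± DMSO, stayed far below D4, and only the D34 ± DMSO arrays lay wholly above those of D15 (-2.65 ± 0.22).

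In all, 7 of the 7 kept genes had a mean that was lower at D15, and 6 had no overlap. Of all genes 46.5% had a lower mean, 11.4% were wholly lower at D15 without overlap, and 3.66% were called lower and 5.76% higher. The median difference of the 7 was -1.40, against 0.04 for all 22224 genes, and nothing is read from it, since CNN1 was chosen on it. Ordered by the size of this difference downward, ACTG2 stood at place 144, TAGLN at 246, TPM1 at 591, ACTA2 at 1508, CALD1 at 3021 and TPM2 at 7290. The place of TPM2 includes D15 replicate 1, which stands apart. Between D15 and D30 − DMSO the 7 differences were small, from -0.27 to 0.36 with a median of 0.02. MYL9 was well above background on 0 of 20 arrays, with levels between -9.14 and -5.82, and the only MYH11 array above background was D15 replicate 3 at -4.23.

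The promoters of these genes differ in whether they hold a CArG box, the element read by SRF. It consists of CC and GG on either side of a core of 6 letters that are all A or T. It was searched in the 250 bases before each start site in the RefSeq promoter table (GRCh38.p14), on both strands, as a full match or with 1 letter off. A full box was found in 1.16% of the 35116 windows and a full or 1-letter-off box in 16.8%. Of the 9 genes, 6 had an entry, and TAGLN, MYL9 and MYH11 were not listed. The windows of the genes that the DMSO comparisons turn on are printed 5′ to 3′ up to the start site, with the boxes in capitals. CNN1 is chr19:11538601-11538850 on the plus strand, ACTA2 (the second of its 2 starts) chr10:88952774-88953023 on the minus strand, ACTG2 chr2:73892758-73893007 on the plus strand, TPM1 chr15:63048239-63048488 on the plus strand and TPM2 (the first of its 2 starts) chr9:35690057-35690306 on the minus strand.
CNN1: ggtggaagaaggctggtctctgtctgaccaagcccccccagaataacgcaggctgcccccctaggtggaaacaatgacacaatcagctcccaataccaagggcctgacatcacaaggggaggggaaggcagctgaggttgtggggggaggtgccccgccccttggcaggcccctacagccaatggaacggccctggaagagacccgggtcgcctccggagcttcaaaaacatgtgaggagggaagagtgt
ACTA2: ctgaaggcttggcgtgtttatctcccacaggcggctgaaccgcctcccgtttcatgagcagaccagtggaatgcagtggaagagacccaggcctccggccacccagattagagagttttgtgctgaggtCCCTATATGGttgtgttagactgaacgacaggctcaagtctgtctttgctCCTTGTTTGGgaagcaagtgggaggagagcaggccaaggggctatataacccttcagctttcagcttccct
ACTG2: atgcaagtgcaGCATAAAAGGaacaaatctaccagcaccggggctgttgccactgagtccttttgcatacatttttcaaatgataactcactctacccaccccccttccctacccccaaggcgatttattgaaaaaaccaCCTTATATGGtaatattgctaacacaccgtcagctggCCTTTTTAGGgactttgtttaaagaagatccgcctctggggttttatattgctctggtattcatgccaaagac
TPM1: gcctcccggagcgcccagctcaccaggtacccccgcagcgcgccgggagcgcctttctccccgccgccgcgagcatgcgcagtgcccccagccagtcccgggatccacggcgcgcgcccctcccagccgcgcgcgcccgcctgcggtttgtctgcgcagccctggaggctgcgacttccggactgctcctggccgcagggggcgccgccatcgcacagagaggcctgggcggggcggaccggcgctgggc
TPM2: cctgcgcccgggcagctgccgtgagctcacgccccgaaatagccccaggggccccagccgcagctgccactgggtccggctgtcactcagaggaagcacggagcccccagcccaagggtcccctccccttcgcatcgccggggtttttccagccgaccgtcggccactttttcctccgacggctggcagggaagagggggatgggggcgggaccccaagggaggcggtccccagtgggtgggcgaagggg
ACTG2 was the only one of the 6 with a full CArG box, and it had 2, which begin at positions -110 and -73 relative to the start, and another with 1 letter off at -239. ACTA2 had 2 boxes with 1 letter off, at -121 and -71, and CALD1 had 1 in each of 2 of its 4 windows, so 3 of the 6 genes had a full or near match, against 20% of all genes in the table. The MCAT element CATTCC, bound by TEAD factors, was found on either strand in 11.9% of the windows, and among the 6 genes in ACTA2, at -183, and in CALD1. None of these letters occurs in the windows of CNN1, TPM1 and TPM2, which says nothing about elements elsewhere in those genes. A match is a description of the sequence and not a bound site.

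**Figure D2:**
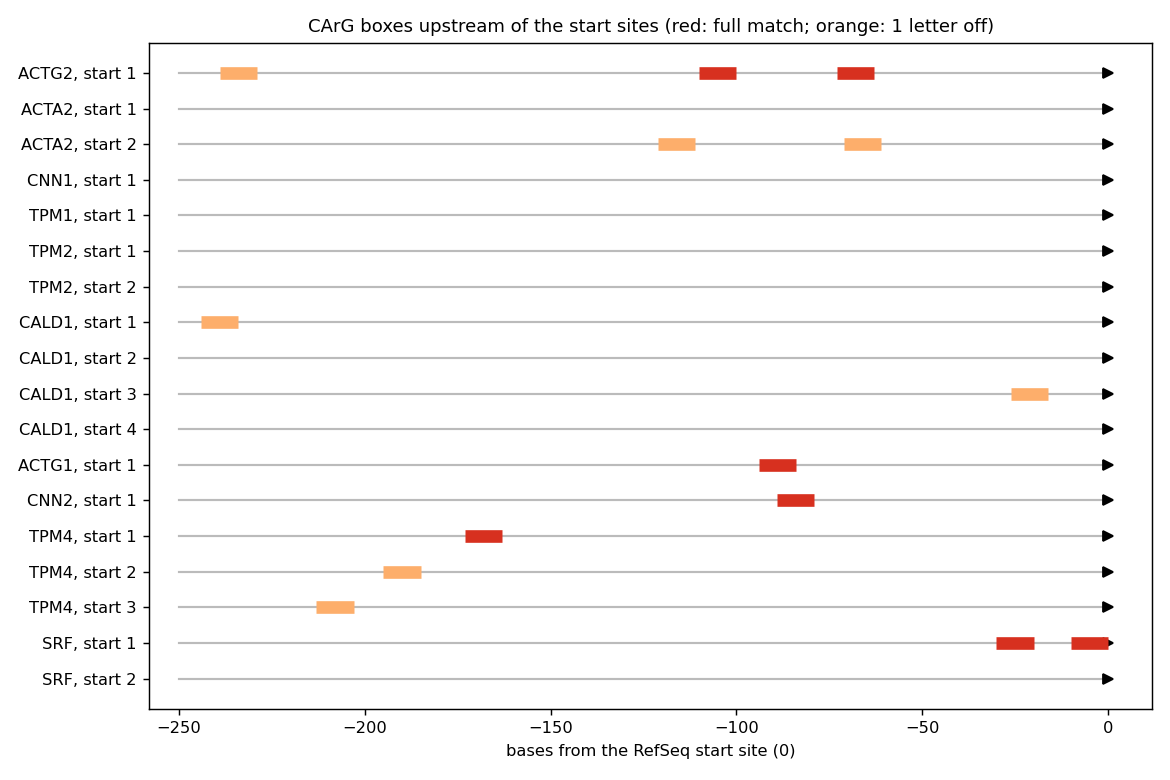
Position of CArG boxes in the 250 bases before each RefSeq start site, for 6 of the genes, for ACTG1, CNN2 and TPM4 of the same families and for SRF itself. Red blocks are full matches and orange blocks are 1 letter off. ACTG2 carries 2 red blocks and the windows of CNN1, TPM1 and TPM2 are empty.

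DMSO addition was tested at matched age, as D30 + DMSO against D30 − DMSO. The value that chose CNN1 did not come from this comparison or from those after withdrawal, although earlier results of all of them were known when the genes were chosen. CNN1 and ACTG2 were called lower and no gene higher, 2 and 0 of the 7 (limma over all 20 arrays, adjusted p below 0.005 and more than 2-fold), where 4.15% of all genes were lower and 1.71% higher. At an unadjusted p below 0.05, with no fold limit, 4 were lower and 0 higher. The share of all genes at that threshold is not given, so nothing is read from these counts. The median difference was -0.84, against 0.04 for all genes, and 6 of the 7 means were lower with DMSO, as were 45.4% of all means. CNN1 had been kept for its signal at D4 alone, and its call rests on values at the floor.

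CNN1 differed by -2.72 on the log2 scale (SE 0.60, 95% interval -3.99 to -1.46, adjusted p = 0.00326). No D30 + DMSO array and only 2 of 4 D30 − DMSO arrays were well above background, and the arrays of the groups overlap. The size of this difference, here and in the later comparisons by slide, is therefore not settled, and no bound for it is given. The size rests on how the background is treated. With a floor of 10 in place of 1 the difference was -0.44 (adjusted p = 0.378), and with a normexp background correction -0.21 (adjusted p = 0.491), neither of which was called. Fitted on the compared arrays alone, CNN1 lost its call as well (adjusted p = 0.035).

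ACTG2 fell by 2.62 (SE 0.57, 95% interval -3.81 to -1.43, adjusted p = 0.00271), with 2 of 4 arrays above background under DMSO and 4 of 4 without. Groups overlap here through D30 − DMSO replicate 4 at -5.26, the array that stands below the others. With the floor of 10 the fall was 1.95 and was called (adjusted p = 0.00384), and with normexp the difference was -0.71 (adjusted p = 0.0205). Fitted on the compared arrays alone, ACTG2 was not called (adjusted p = 0.04).

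Both tropomyosins were lower on all 4 DMSO arrays than on any array without DMSO but did not pass both thresholds. Of all genes, 12.6% were wholly lower on the DMSO arrays. TPM1, bright on every array, differed by -0.84 (1.79-fold, SE 0.20, adjusted p = 0.00497), below the 2-fold limit, and its other probes by -0.63 and -0.72. TPM2 differed by -1.48 (2.79-fold, SE 0.41, adjusted p = 0.0168), and its other probe by -1.58 (adjusted p = 0.0125). The TPM2 levels, 0.93, 0.87, 1.15 and 0.84 without and -0.44, -0.79, -0.60 and -0.31 with DMSO, were tight within both groups, and the error of the fit includes the wide D15 and D34 ± DMSO arrays. When D15 replicate 1 and D34 ± DMSO replicate 2 were left out, the same difference had an adjusted p of 5.01e-05, and on the compared arrays alone TPM2 was called (adjusted p = 0.00037). ACTA2 differed by -0.53 (SE 0.28, adjusted p = 0.217). TAGLN (-0.12, adjusted p = 0.843) and CALD1 (0.12, SE 0.11, adjusted p = 0.579) had the smallest differences.

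**Figure D3:**
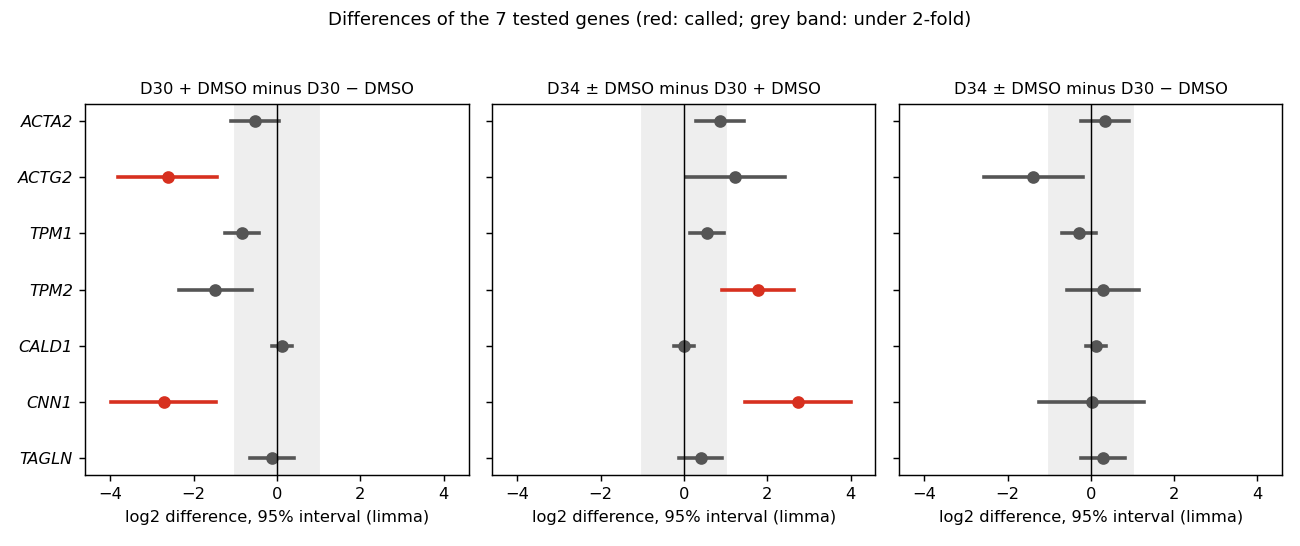
Log2 differences of the 7 tested genes with their 95% intervals from limma, in 3 panels for DMSO addition, DMSO removal and withdrawn against never exposed cells. Red marks called genes and the grey band marks differences under 2-fold. CNN1 and ACTG2 are red in the left panel, CNN1 and TPM2 in the middle one and none in the right one.

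DMSO removal was tested as D34 ± DMSO against D30 + DMSO, which shares the D30 + DMSO arrays with the test of addition. CNN1 and TPM2 were called higher and none lower, 2 and 0 of the 7, where 4.91% of all genes were higher and 2.09% lower. CNN1 had been kept for its signal at D4 alone, and its call rests on values at the floor. With a floor of 10 in place of 1, only TPM2 was called. At an unadjusted p below 0.05, with no fold limit, 5 were higher and 0 lower, and no share of all genes at that threshold is given. All 7 means were higher after withdrawal, while 56.3% of all means were lower, with a median difference of 0.87 against -0.07 for all genes.

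CNN1 differed by 2.74 (SE 0.60, adjusted p = 0.00259), with 0 of 4 arrays above background before and 2 of 4 after withdrawal, and this call too rests on values at the floor. With the floor of 10 the difference was 0.43 (adjusted p = 0.362) and with normexp 0.20 (adjusted p = 0.502), neither of which was called. TPM2 rose by 1.77 (SE 0.41, adjusted p = 0.00416), and by 1.88 on its other probe (adjusted p = 0.00311). The D34 ± DMSO arrays of TPM2 were 0.73, 2.62, 0.54 and 1.07, all above the D30 + DMSO arrays, and replicate 2 is the array that stands apart. Without that array the rise was 1.31 (adjusted p = 0.0133), and without both arrays that stand apart it was 1.31 (adjusted p = 0.000277). Fitted on the compared arrays alone, neither CNN1 (adjusted p = 0.0288) nor TPM2 (adjusted p = 0.0205) was called.

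ACTA2 was 0.87 higher after withdrawal (SE 0.28, adjusted p = 0.0306) and was not called, with all 4 arrays above those with DMSO. ACTA2 and TPM2 were the 2 of the 7 genes without overlap, and 11.3% of all genes were wholly higher after withdrawal. ACTG2 was 1.24 higher (SE 0.57, adjusted p = 0.14), TPM1 0.56 (SE 0.20, adjusted p = 0.0484) and TAGLN 0.40 (SE 0.25, adjusted p = 0.311), none of which passed. CALD1 differed by 0.00 (SE 0.11, adjusted p = 0.989).

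**Figure D4:**
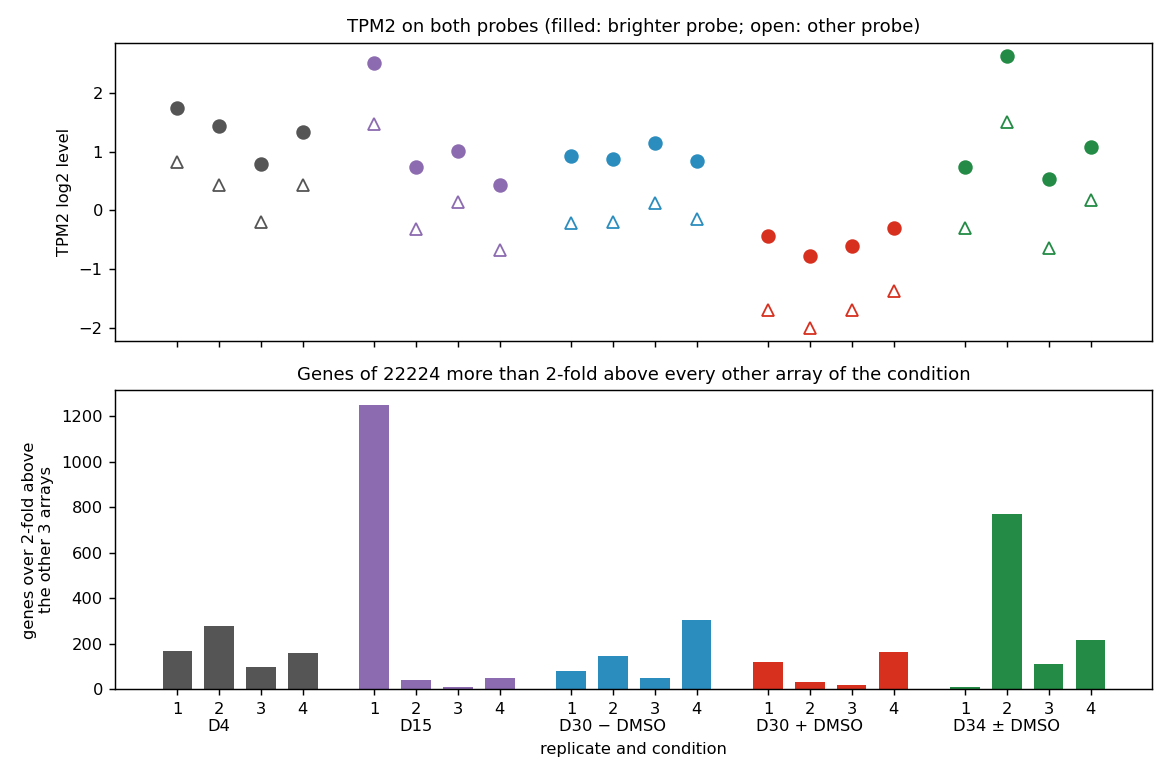
Upper panel: log2 level of TPM2 on each of the 20 arrays, on its brighter probe (filled circles) and its other probe (open triangles). Lower panel: number of the 22224 genes more than 2-fold above every other array of the condition. D15 replicate 1 and D34 ± DMSO replicate 2 are the highest TPM2 arrays and the tallest bars, with 1250 and 771 genes, and the 4 D30 + DMSO arrays are the lowest on both probes.

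Slides 3 and 4 each held arrays of D30 − DMSO, D30 + DMSO and D34 ± DMSO, so the differences can be read within a slide. For addition, CNN1 differed by -2.32 and -2.07 on these slides, ACTG2 by -2.39 and -1.91, TPM2 by -1.54 and -1.29 and TPM1 by -1.07 and -0.85. On removal, CNN1 differed by 1.87 and 2.75, TPM2 by 1.24 and 1.53 and ACTA2 by 0.96 and 1.25. Every one of these has the sign of the value over all slides. TAGLN (0.10 on slide 3) and CALD1 (-0.10 on slide 4) did not keep their sign for addition, nor did CALD1 for removal (-0.07 on slide 3). Each of the slides held 1 D30 − DMSO array, and slide 4 held 1 D34 ± DMSO array. All D30 + DMSO arrays lay on these slides, so the values within slides largely reuse the same arrays. With the slide as a block, CNN1 no longer passed for addition (-2.31, adjusted p = 0.00541) and the TPM2 difference was -0.996 (adjusted p = 0.0271), while ACTA2 passed for removal (1.06, adjusted p = 9.89e-05). ACTA2 passed for removal with the scan session as a block too (1.03, adjusted p = 6.01e-05). For addition, ACTA2 differed by -0.69 with the slide as a block (limma, adjusted p = 0.00453). With the scan session as a block it differed by -0.70 (limma, adjusted p = 0.00231). Both are under 2-fold, so ACTA2 was not called for addition.

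Withdrawn and never exposed cells were compared as D34 ± DMSO against D30 − DMSO, which shares arrays with both other tests and is 4 days apart in culture age. In limma 0 of 7 genes were called, where 1.3% of all genes were higher and 0.211% lower. At an unadjusted p below 0.05, 0 were higher and 1 lower, and the test named in the methods also called 0. The lower gene was ACTG2, at -1.39 (SE 0.57, 95% interval -2.58 to -0.19, adjusted p = 0.224). CNN1 differed by 0.02 with an interval of -1.25 to 1.28, which leaves room for a more than 2-fold difference either way, and TPM2 by 0.29 (-0.58 to 1.16). The median was 0.12, against -0.03 for all genes.

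The families of these proteins have other isoforms, most of them used by non-muscle cells, and these were counted as a list. Of 17 such genes 15 were kept, and ACTA1 and ACTC1, the skeletal and cardiac actins, were not. With DMSO, where 4.15% of all genes were called lower and 1.71% higher, 3 of 15 fell and 0 rose, with a median of -0.32. TPM4, a tropomyosin of stress fibres, fell by 1.69 (SE 0.21, adjusted p = 1.63e-05), the light chain MYL6B by 1.35 (adjusted p = 5.82e-05) and TAGLN3 by 1.28 (adjusted p = 0.000901). TAGLN3 was well above background on only 2 of 4 arrays with DMSO, which limits the size of its differences on addition and removal. On removal, where 4.91% of all genes were called higher and 2.09% lower, 4 rose and 0 fell, with a median of 0.28. These were TPM4 by 2.08 (SE 0.21, adjusted p = 1.07e-06), TAGLN3 by 1.55 (adjusted p = 0.00012), MYL6B by 1.21 (adjusted p = 0.000139) and TAGLN2, 2.14-fold (adjusted p = 0.00162). Between withdrawn and never exposed cells limma called 0 of 15, with 1 higher and 1 lower at an unadjusted p below 0.05.

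TPM4 had the clearest course of the list. Its mean was 3.34 ± 0.30 at D4, 0.83 ± 0.26 at D15, 0.97 ± 0.34 in D30 − DMSO, -0.72 ± 0.23 in D30 + DMSO and 1.37 ± 0.37 in D34 ± DMSO (SD, n = 4 each). From D4 to D15 it fell by 2.51 (adjusted p = 6.48e-08), CNN2 by 1.35 (adjusted p = 0.000102) and TAGLN3 by 1.01 (adjusted p = 0.00453), so that 3 of 15 fell and 0 rose, with a median of -0.56. Between these days 3.66% of all genes were called lower and 5.76% higher, and the same shares apply to the lists below.

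CNN2 and CNN3 had differences of opposite sign, which were not tested against each other. CNN2, the calponin of non-muscle cells, differed by -0.99 on addition (adjusted p = 0.0028, just under 2-fold) and by 0.81 on removal (adjusted p = 0.00949), while CNN3, the acidic calponin, differed by 0.68 and -0.67 (adjusted p = 0.00821 and 0.00809). Neither passed both thresholds. The cytoplasmic actins ACTB (-0.08 and 0.21) and ACTG1 (-0.39 and 0.05) and the non-muscle myosins MYH9 (-0.13 and 0.35) and MYH10 (0.30 and 0.11) had differences under 2-fold in both comparisons, and none of them passed. The same holds for TPM3 (-0.32 and 0.44), MYL12B (-0.29 and 0.04) and MYL12A (-0.81, adjusted p = 0.000709, and 0.28).

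**Figure D5:**
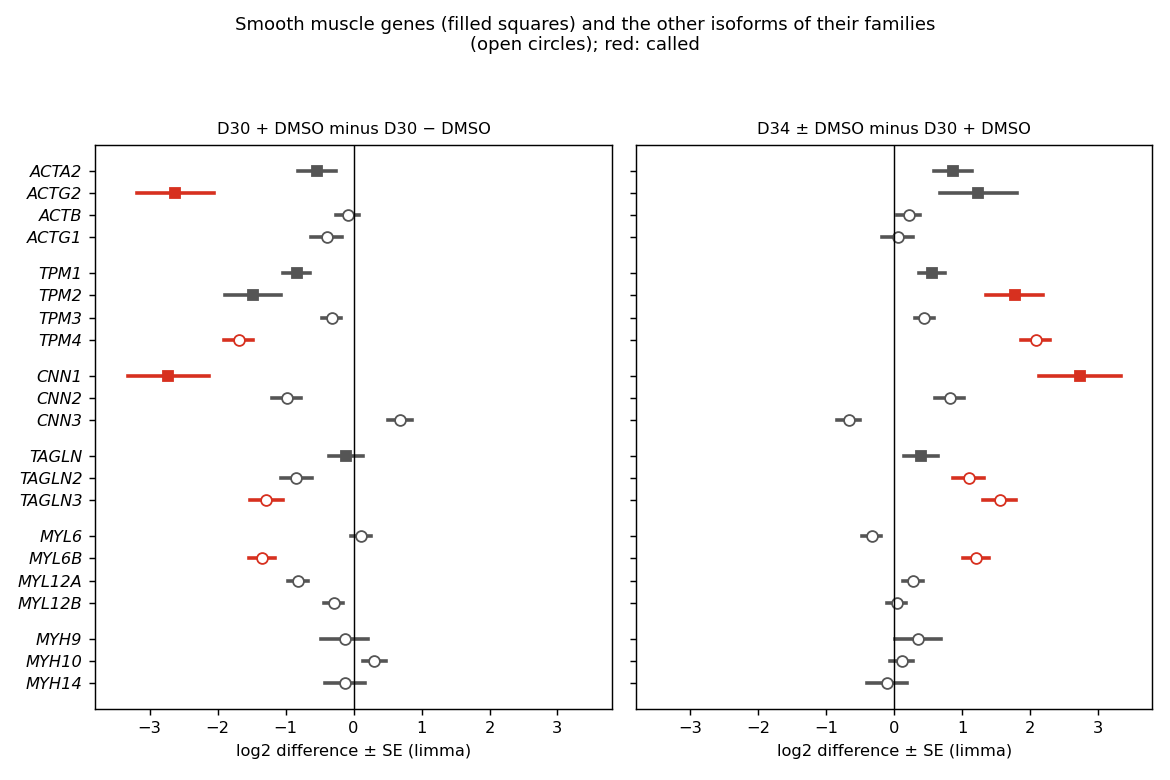
Log2 difference with its SE from limma for DMSO addition (left) and removal (right), by protein family. Filled squares are the smooth muscle genes and open circles the other isoforms, and red marks called genes. TPM4, TAGLN3 and MYL6B are red on the left of 0 for addition and on the right of 0 for removal, while ACTB and the heavy chains lie near 0.

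The 250 bases before the start held a full CArG box in 5 of the 16 other isoforms with an entry, namely ACTG1, ACTA1, ACTC1, CNN2 and TPM4. Of all 27305 genes with an entry, 1.44% had a full box. Shown for comparison with the empty windows of CNN1, TPM1 and TPM2 are 50 bases around the box of CNN2 (chr19:1026499-1026548, plus strand, box at -89) and of TPM4 (chr19:16067345-16067394, plus strand, box at -173), from RefSeq on GRCh38.p14, with the box in capitals.
CNN2: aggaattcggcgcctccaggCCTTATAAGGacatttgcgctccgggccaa
TPM4: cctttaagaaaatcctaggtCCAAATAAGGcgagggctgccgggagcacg
The windows of CNN3 and TPM3 held no full box.

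SRF itself differed by -0.65 on addition (adjusted p = 0.173), by -0.18 on removal and by -0.60 from D4 to D15 (adjusted p = 0.195), and passed nowhere. Its cofactors MRTFA (-0.12 and 0.08) and MRTFB (-0.18 and 0.14) had small differences for addition and removal. The list of SRF, its cofactors and targets had 15 kept genes. With DMSO 1 fell, where 4.15% of all genes were lower, and 1 rose on removal, where 4.91% were higher. Both were FHL2, a LIM-domain protein and SRF target, which fell by 1.88 (SE 0.18, adjusted p = 9.43e-07) and rose by 1.78 (adjusted p = 1.1e-06). The medians of the list were -0.18 and -0.05. From D4 to D15, 3 fell and 0 rose with a median of -0.41, namely CCN1 by 2.19, FHL2 by 1.89 and ANKRD1 by 1.17. Between withdrawn and never exposed cells limma called 0, with 0 higher and 5 lower at an unadjusted p below 0.05.

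Stress fibre and focal adhesion genes were all 27 kept. With DMSO, where 4.15% of all genes were lower and 1.71% higher, 2 fell and 1 rose, with a median of -0.24. FLNA, the actin cross-linker filamin A, fell by 1.95 (SE 0.42, adjusted p = 0.0025), the zyxin-family protein TRIP6 by 1.67 (adjusted p = 9.26e-07), and LIMA1 rose by 1.05 (adjusted p = 6.83e-05). On removal FLNA rose by 2.76 (adjusted p = 8.42e-05) and TRIP6 by 1.83 (adjusted p = 2.2e-07), 2 higher and 0 lower, with a median of 0.13. The shares of all genes there were 4.91% higher and 2.09% lower. From D4 to D15, 6 fell and 0 rose with a median of -0.74, among them FLNA by 2.05, PDLIM7 by 1.75 and ITGB1 by 1.50.

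Of the 20 genes that control actomyosin, 1 fell and 0 rose with DMSO, namely PPP1CB, the catalytic subunit of myosin phosphatase, by 1.26 (adjusted p = 5.34e-05). That count is near the share of all genes called lower, 4.15%. On removal, where 4.91% of all genes were higher and 2.09% lower, 4 rose and 0 fell. These were CIT by 3.30 (adjusted p = 9.89e-07), DIAPH3 by 3.26 (adjusted p = 1.25e-07), ARHGEF2 by 1.78 and LIMK2 by 1.40, and the median of the list was 0.05. CIT (3.08, adjusted p = 8.97e-06) and DIAPH3 (2.65, adjusted p = 5.1e-06) were also the 2 of 20 higher in withdrawn than in never exposed cells. Citron kinase and the formin DIAPH3 act in cell division. From D4 to D15, 4 fell, DIAPH3 by 2.77, CIT by 2.32, RND3 by 1.30 and LIMK2 by 1.02, with a median of -0.40.

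Other smooth muscle genes did not follow CNN1 as a group. Of 23, 17 were kept. With DMSO, where 4.15% of all genes were lower and 1.71% higher, 3 fell and 0 rose, and the median was -0.02. ITGA8, an integrin of smooth muscle and stellate cells, fell by 1.88 (adjusted p = 0.00152), IRAG1 by 1.64 (adjusted p = 0.000408) and the small heat shock protein CRYAB by 1.14 (adjusted p = 0.000347). On removal limma called 0 of 17, with 4 higher and 3 lower at an unadjusted p below 0.05, and between withdrawn and never exposed cells 0, with 1 higher and 4 lower. From D4 to D15, 3 rose and 1 fell, with a median of 0.25. Among them ITGA8 rose by at least 14.3-fold and IRAG1 by 1.36 on the log2 scale, and SMTN, the contractile protein smoothelin, fell by 1.64. Desmin (DES), the intermediate filament of muscle, differed by -0.20 on addition and 0.11 on removal.

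Markers of the stellate cell and the fibroblast were called both on DMSO addition and on removal. The CNN1 calls in these comparisons rest on values at the floor. ACTA2, also a marker of the activated stellate cell, was called in neither in the main fit (limma, adjusted p = 0.217 and 0.0306). With the slide or the scan session as a block, limma called ACTA2 higher on removal (adjusted p = 9.89e-05 and 6.01e-05). Of the 14 markers in the list, 9 were kept. The shares of all genes were 4.15% lower with DMSO and 4.91% higher on removal. With DMSO 5 fell and 0 rose, with a median of -2.68, led by FAP at least 4.39-fold, POSTN by 3.20 and DCN by 2.97, and on removal 5 rose and 0 fell, with a median of 1.39, led by POSTN by 4.29, FAP at least 4.07-fold and DCN by 2.97. The summed signal of the 9 was 4838 to 10731 in D30 − DMSO, 1029 to 1361 in D30 + DMSO and 4453 to 10216 in D34 ± DMSO, so that the DMSO arrays lay apart, and at D4 it was 15372 to 23871. From D4 to D15 4 of them fell, POSTN by 5.01, FAP by 2.96, LUM by 2.28 and COL1A1 by 1.91. The defining receptor PDGFRB and COL1A2 were well above background on 0 of 20 arrays, THY1 on 1, PDGFRA on 2 and LRAT on 8. The part of these markers in the differences of CNN1, ACTG2 and TPM2 was not tested.

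The lineage markers of the liver gave other counts. Of the 8 hepatocyte markers limma called 0 on addition (4 higher and 0 lower at an unadjusted p below 0.05, median 0.50) and 0 on removal (0 higher and 3 lower, median -0.28), and albumin differed by 0.28 and -0.27. Of 4 biliary markers 1 rose and 1 fell on addition, SOX9 by 1.31 and SPP1 by 1.78, and on removal SPP1 rose by 2.22 and SOX9 fell by 2.09, while KRT19 differed by -0.22 and 0.32. Of the skeletal and heart muscle markers 3 of 8 and of the endothelial and blood cell markers 3 of 6 were kept, and none of these was called on addition or removal, nor at an unadjusted p below 0.05. The muscle regulator MYOD1 was above background on at most 11 arrays and PECAM1 on 10, and neither was kept. Between withdrawn and never exposed cells limma called 0 in each of these 5 marker lists, and at an unadjusted p below 0.05 it had 1 higher stellate cell or fibroblast marker, 1 lower biliary marker and 1 lower endothelial or blood cell marker. The blood cell gene PTPRC was kept and was called nowhere.

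The D4 arrays, on which CNN1 was chosen, enter the following order, and CNN1 is near background on most others. Over all 20 arrays, which share slides, the genes most like CNN1 by Pearson's correlation were a lincRNA probe on chromosome 3 (r = 0.971), the transcript NM_004105 (r = 0.970), the protease genes CAPN2 (0.965) and ADAM10 (0.958) and MOXD1 (0.955). Among 22223 other genes ACTG2 stood at place 162 (r = 0.888), TPM1 at 210 (0.877), TAGLN at 437 (0.837), CALD1 at 1966 (0.672), ACTA2 at 2082 (0.662) and TPM2 at 3377 (0.554). The 21 pairs among the 7 genes had r from -0.01 to 0.89 with a median of 0.66. With each condition's mean removed the same pairs ran from -0.48 to 0.72 with a median of 0.10, and 14 were above 0. The highest of these was ACTA2 with TPM1 (0.72), and CNN1 with ACTG2 had 0.51, while CNN1 had -0.41 with both ACTA2 and TPM1.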

How the data were processed

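Total RNA of HepaRG cells, 4 independent experiments for each of 5 conditions, was labelled with Cy3 and hybridised to Agilent 1-colour arrays. The authors scanned the arrays with Agilent Feature Extraction (version 10.7.3.1 per the labels, 10.7.1.1 per the file headers), and the deposited files hold 1 processed intensity for each spot, already corrected for background by that software. The authors also deposited a table of log2 values. After centring, it differed from the values used here by a median of 3.56e-07, so it is on the log2 scale and scaled to the 75th percentile, with no change of direction. No column was left unused for lack of a sample.

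Control spots were removed from the intensities, 58717 spots were averaged into 42405 probes, each array was scaled to its 75th percentile, signals were held at 1 or above and log2 was taken. A probe was kept if some condition had it well above background on 4 of 4 arrays (26541 probes, 22224 genes). The accessions of 24826 probes were named through RefSeq, and a gene is represented by its kept probe with the highest mean.

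All 20 arrays were fitted with 5 condition means in limma 3.58.1 (R 4.3.3), and p-values were adjusted by the Benjamini-Hochberg method over all kept probes. A gene was called when its adjusted p was below 0.005 and its difference over 2-fold, the thresholds of the methods for a pair of conditions. Shares of all genes called are counted over the gene probes. Counts at an unadjusted p below 0.05 carry no fold limit and no share of all genes, so nothing is read from them. The script was tested on simulated data. The number of arrays limits the precision.

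The genes, the gene lists and the comparisons were chosen with earlier results of these data known. The text names all 9 genes, the main family isoforms, SRF and its cofactors, selected markers, and from each list up to 3 called genes with the largest rise and up to 3 with the largest fall, apart from 1 gene that is not reported here. Same-numbered replicates did not all deviate together (r from -0.31 to 0.79 over 40 pairs, 27 above 0.1), whereas arrays of one slide did (44 of 44 pairs above 0.1), so the numbers were not taken as pairs. Alternatives were the normalization, background correction, filter, floor, probe, test, threshold, the slide, scan session and replicate number as blocks, the arrays in the fit and each array left out. Leaving out both arrays that stand apart was chosen after seeing the data. Promoter letters were searched with Python 3.11.15.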

Additional observations from a re-analysis of the deposited data

Results flagged for a closer look

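Of the 35 sets of 4 arrays, 1 for each gene and condition, 4 had an array whose gap to the nearest of the others, divided by the range of the set, was above Dixon's 95% limit for 4 values. Chance gives about 1 in 20 such sets. CNN1 at D15 had replicate 1 above the others at -4.96 (ratio 0.864), although this array was not well above background. CNN1 in D30 + DMSO had replicate 2 at -6.25 against -9.13 and lower (ratio 0.996), where the other 3 arrays are at or next to the floor. CALD1 at D4 had replicate 2 below the others at 3.98 (ratio 0.954), a set that spans less than 2-fold. ACTG2 in D30 − DMSO had replicate 4 at -5.26 against -3.16 and higher (ratio 0.845), and this array makes the D30 groups of ACTG2 overlap.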

How the results depend on the processing

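No called difference of the 7 genes changed sign under any alternative, and 0 genes were called between withdrawn and never exposed cells in every setting run. The counts of called genes, 2 for addition and 2 for removal, did move. For addition and for removal in turn they were 0 and 1 with normexp, 1 and 1 on the authors' log2 table, 0 and 0 without a filter on dim probes, 0 and 1 with only probes above background on all arrays, 1 and 1 with a floor of 10, 1 and 0 with only the arrays compared in the fit, and 1 and 0 by the t-test of the methods, adjusted or not. The 1 gene called for addition in these last settings was TPM2 (adjusted p = 0.00162 by that test), while CNN1 (0.0893) and ACTG2 (0.0981) were not called. The filter that keeps only probes above background everywhere removes CNN1 and ACTG2, so their values could not be had there. With the slide as a block they were 1 and 3. With the replicate number as a block they were 2 and 2, and no call changed. Leaving out the 2 arrays that stand apart, chosen after seeing the data, gave 3 and 1, with TPM2 added for addition and CNN1 lost for removal (2.41, adjusted p = 0.0136). Leaving out 1 array at a time gave 0 to 2 for addition, with 0 without D30 − DMSO replicate 1, 2 or 3 or D30 + DMSO replicate 3 or 4 and 1 without D30 + DMSO replicate 1. It gave 0 to 2 for removal, with 0 without D30 + DMSO replicate 1, 3 or 4 or D34 ± DMSO replicate 2 and 1 without D30 + DMSO replicate 2 or D34 ± DMSO replicate 3 or 4. Apart from where it is given, the cause was not tested. Of 309 tested differences of single genes under other settings 277 stayed on their side of the thresholds, 25 lost their call and 7 gained a call. CNN1 after D4 and ACTG2 with DMSO are near background, which limits their differences.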

Other observations

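With the mean of each condition removed, the mean deviation of the 7 genes on an array ran from -0.36 in D30 + DMSO replicate 3 to 0.38 in D30 + DMSO replicate 2. The genes that followed this deviation most closely over the 20 arrays were the protocadherin PCDHB7 (r = 0.839), an unnamed lincRNA probe on chromosome 2 (r = 0.788) and GRK5, a kinase of G protein-coupled receptors (r = 0.767). These are descriptions over arrays that share slides.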
